A study of Homo sapiens with 2 samples.

Results

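The EGR and NR4A families are transcription factors that many cells make within minutes of a signal. They were examined here as every probe set with a value whose annotation names exactly 1 gene, among EGR1, EGR2, EGR3, EGR4, NR4A1, NR4A2 and NR4A3. Values covered 36289 probe sets. Any set of the array without a value could not be examined, and all genes below means all genes with a value. Of these 7 genes 6 were measured, by 14 of 29461 named probe sets and among 16692 genes in all. No probe set used here carried EGR2 as its only gene symbol, so EGR2 has no value. The series holds 2 samples of 1 human lymphoblastoid cell line, B cells made immortal by Epstein-Barr virus, with total RNA of each sample on 1 Affymetrix Human Genome U133 Plus 2.0 array. The titles write the line as GM06690 and the growth protocol as GM06990. Both samples were grown in RPMI1640 with fetal calf serum, the labels name no treatment, and the samples form 1 group with replicates 1 and 2. Whether they came from different cultures is not stated, so their spread may be technical, and a single line does not stand for other donors' cells. As only 1 condition was measured, no test was run.

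EGR1 to EGR4 carry zinc fingers that bind GC-rich sites, and the corepressors NAB1 and NAB2 hold EGR1, EGR2 and EGR3 in check. In lymphocytes antigen receptor signalling through the kinase ERK induces EGR1, EGR2 and EGR3, by way of serum response factor (SRF) and its ternary complex partners. NR4A1 (Nur77), NR4A2 (Nurr1) and NR4A3 (Nor1) are orphan nuclear receptors, which act without a known hormone. Calcium signalling through MEF2 and cyclic AMP signalling through CREB induce them, and in B and T cells NR4A1 is used as a reporter of antigen receptor signalling.

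Signals are log2 RMA intensities, RMA being the authors' method of background correction, normalization between arrays and summary over the probes of a set. The background level of an array was the 95th percentile of 57 genes chosen as restricted to tissues such as liver, muscle or eye. It was 6.40 in replicate 1 and 6.35 in replicate 2. Of these reference genes KRT10 (mean 11.24) and MBP (mean 10.33) were bright in these cells, which raised the level. Without them it was 5.74 in replicate 1 and 5.72 in replicate 2. A gene counted as above background when its brightest probe set exceeded the level of all 57 genes on both arrays. The arrays correlated across all probe sets with a Pearson r of 0.997. All 9 measured markers of B cells and of EBV-transformed B cells were above background, among them MS4A1 (CD20) at 13.19 ± 0.10 (SD, n = 2) and CD79A, a signalling chain of the B-cell receptor, at 11.30 ± 0.03. None of 14 markers of T, myeloid, NK, erythroid, epithelial and fibroblast cells was above it, and their brightest probe sets lay between 3.72 and 5.19.

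The sequences just before the transcription start were examined for letter matches to sites such as those of SRF and CREB. The signals of those factors are given further on. The 250 bases before each RefSeq start (GRCh38.p14) were searched on both strands. The table used here had an entry for EGR1, EGR4 and NR4A3 at 1 start each, for NR4A1 at 2 starts and for EGR2 at 3. EGR3 and NR4A2 had no entry, so their promoters were not searched. Capitals below mark the CArG box, the site of SRF, and the CRE core TGACG, read on either strand, the core of the site of CREB. The windows are chr5:138465229-138465478 (plus strand) for EGR1, chr2:73293549-73293798 (minus strand) for EGR4 and chr9:99821635-99821884 (plus strand) for NR4A3, each outside the gene and directly before its start.
EGR1: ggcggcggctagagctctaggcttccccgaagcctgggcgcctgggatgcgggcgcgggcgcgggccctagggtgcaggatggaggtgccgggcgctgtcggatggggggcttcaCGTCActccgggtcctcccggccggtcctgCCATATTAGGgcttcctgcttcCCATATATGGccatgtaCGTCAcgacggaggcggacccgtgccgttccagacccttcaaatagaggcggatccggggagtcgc
EGR4: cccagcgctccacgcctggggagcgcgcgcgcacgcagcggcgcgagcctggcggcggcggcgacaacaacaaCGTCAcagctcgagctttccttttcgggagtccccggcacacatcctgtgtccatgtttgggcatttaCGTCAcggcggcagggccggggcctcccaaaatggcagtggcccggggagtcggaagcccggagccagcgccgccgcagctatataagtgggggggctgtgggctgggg
NR4A3: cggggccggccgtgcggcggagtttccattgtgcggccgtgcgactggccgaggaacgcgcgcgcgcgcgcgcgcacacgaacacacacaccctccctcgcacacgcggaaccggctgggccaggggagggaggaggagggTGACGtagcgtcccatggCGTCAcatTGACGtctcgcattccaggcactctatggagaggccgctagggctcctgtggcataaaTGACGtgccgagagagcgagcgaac

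The EGR1 window held 2 CArG boxes, 74 to 83 and 96 to 105 bases before the start, flanked by 2 CRE cores. The NR4A3 window held 4 CRE cores and 0 CArG boxes, and the EGR4 window held 2 CRE cores and 0 CArG boxes. Of the 3 EGR2 windows, 1 held a CArG box with 2 CRE cores and the others held neither, as did both NR4A1 windows. A CArG box was present in 1.16% of all 35116 promoter windows of this length and a CRE core in 21.2%. The full CRE TGACGTCA (1.65% of all windows), the EGR site GCGGGGGCG (4.72%), the NR4A site AAAGGTCA (NBRE, 1.05%), the ETS site CCGGAAGT (3.42%) and the TATA box TATAAA (10.7%) had 0 matches in these 8 windows. The full CRE contains the CRE core, so a match to it would count under both. Apart from the CArG box, only the exact letters shown were searched. Close variants, such as tatataag for the TATA box in the EGR4 window, were not counted. These letter matches describe the windows and are not measured binding.

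**Figure D1:**
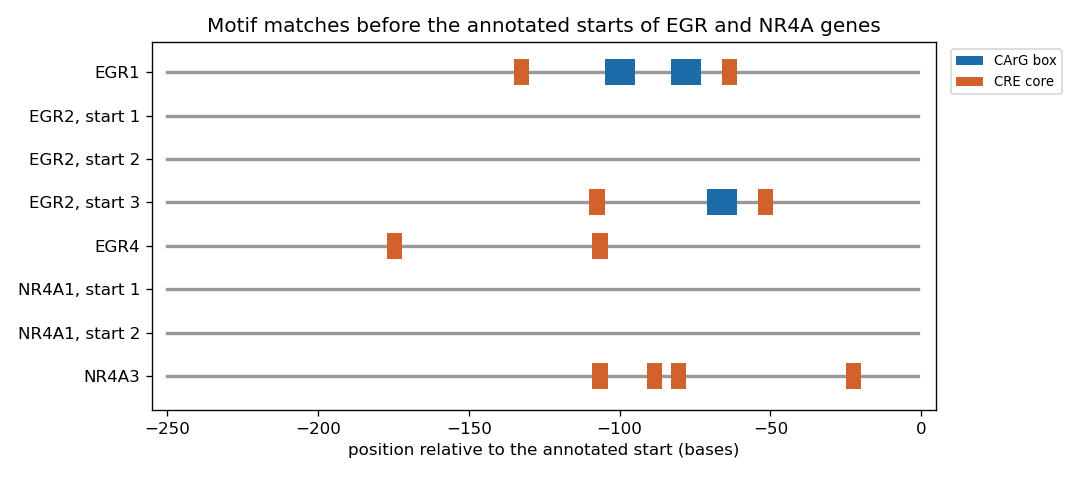
Matches to the CArG box (blue) and the CRE core (orange) in the 250 bases before each annotated start of the EGR and NR4A genes in the promoter table, with the position relative to the start in bases on the horizontal axis; starts of 1 gene are numbered along its strand. EGR1 and 1 EGR2 start have CArG boxes, NR4A3 has 4 CRE cores, and both NR4A1 starts have neither motif.

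Of the 6 measured genes 1, EGR3, lay above background on both arrays, while 47.8% of all genes did. EGR1 exceeded the level in replicate 2 alone, and EGR4, NR4A1, NR4A2 and NR4A3 exceeded it on neither array. Of the 14 probe sets 1 was above background on both arrays, against 42.6% of all named probe sets. The median signal of the 6 genes was 5.38, and that of all genes was 6.11. Since probe sets differ in how strongly they bind their transcript, no order of abundance among these genes follows from their signals.

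EGR3, a target of calcium and ERK signalling that restrains lymphocyte responses together with EGR2, had 1 probe set, 206115_at. Its intensity was 139 in replicate 1 and 153 in replicate 2, or 7.12 and 7.26 on the log2 scale. On each array 55 of the 57 reference genes were dimmer and only KRT10 and MBP were brighter. Of all probe sets 65.8% were dimmer in replicate 1 and 67.1% in replicate 2. The signal stood 0.73 and 0.91 above the level. Its SD of 0.10 between the arrays does not cover the choice of the level. This probe set has neither the suffix _x_at nor _s_at, which the array maker gives to sets whose probes may match several transcripts.

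EGR1, the founding member and an early target of ERK and SRF, was measured by 2 probe sets that differed between the arrays in opposite directions. Its brighter set, 201694_s_at, had an intensity of 84.0 in replicate 1 and 117 in replicate 2, or 6.39 and 6.88 on the log2 scale. Replicate 1 was thus at the level, whose intensity there was 84.2, and replicate 2 was above it by 0.53. Its dimmer set, 201693_s_at, had intensities of 36.6 and 28.7, or 5.19 and 4.84, and lay below the level on both arrays by more than 1. On the log2 scale the arrays differed (replicate 2 minus replicate 1) by 0.48 for the brighter set and by -0.35 for the dimmer set. The brighter set was thus higher in replicate 2 and the dimmer set in replicate 1. Of all named probe sets 2.97% differed by at least as much as the brighter set and 8.21% by at least as much as the dimmer one.

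EGR4, known mainly from the nervous system, was low by both of its probe sets. The brighter, 207767_s_at, had intensities of 25.9 and 23.7 (4.70 and 4.57 on the log2 scale), and 41 and 37 of the 57 reference genes were dimmer. The other, 207768_at, had intensities of 11.8 and 11.6 (3.57 and 3.53), and only 8 and 7 reference genes were dimmer. Both arrays were low, and all 4 values lay below the median probe set of their array (5.05 and 5.06).

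The 3 NR4A genes were measured by 9 probe sets, of which 0 exceeded the level on either array. NR4A1 had its brightest signal in 202340_x_at, with intensities of 35.5 and 39.2, or 5.15 and 5.29 on the log2 scale. Its sets 210226_at (4.59 and 4.37) and 211143_x_at (4.01 and 4.26) were dimmer. Replicate 2 was the higher array for both _x_at sets and the lower one for 210226_at, so the sets of NR4A1 also disagreed on direction.

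NR4A2, needed for dopamine neurons and induced early in lymphocytes, had its brightest signal in 204622_x_at, with intensities of 46.1 and 46.9, or 5.53 and 5.55. Here 51 of the 57 reference genes were dimmer on each array, and the signal relative to the level was -0.87 and -0.80. Its SD of 0.02 between the arrays does not cover the choice of the level, which decides the call as given below. The set 216248_s_at read 4.96 and 4.97, and 204621_s_at read 4.94 and 4.66. The first pair was nearly equal on the arrays and the second was lower in replicate 2.

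NR4A3, which overlaps NR4A1 in function in lymphocytes, had its brightest signal in 209959_at, with intensities of 31.8 and 39.0, or 4.99 and 5.29. Its other sets were 207978_s_at (4.28 and 4.32) and 216979_at (3.95 and 4.03). All 3 sets were slightly higher in replicate 2, and their differences of 0.30, 0.04 and 0.08 were common ones. Among all named probe sets 12.7%, 76.2% and 58.5% differed by at least as much.

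The NR4A readings lie in the range where the level decides the call. With the 95th percentile of the 14 markers of other cell types as the level (5.13 on both arrays), an alternative chosen after seeing the data, EGR1, EGR3, NR4A1 and NR4A2 were above it, 4 of 6, against 56.8% of all genes. Without KRT10 and MBP among the reference genes (levels 5.74 and 5.72), also chosen after seeing the data, EGR1 joined EGR3, 2 of 6 against 51.8% of all genes, and the same 2 genes were above in replicate 2 alone (2 of 6 against 48.5%). At the median of all probe sets the count was 4 of 6 against 57.5%. Set at the 75th percentile of the reference list (4.75 and 4.69), the level had 5 of 6 above it, all but EGR4, against 61.6%. These lower levels also passed markers of other cell types, 4 of 14 at the 75th percentile and 1 of 14 at the median of all probe sets. EGR3 alone was above, 1 of 6, with the mean of all probe sets of a gene (46.9% of all genes) and in replicate 1 alone (48.3%), and it was 1 of the 4 genes with a set left when _x_at and _s_at sets were dropped (44.7%). At the 99th percentile, a level set by KRT10 and MBP (10.69 and 10.77), 0 of 6 and 9.69% of all genes were above. EGR4 was above background under none of these settings.

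**Figure D2:**
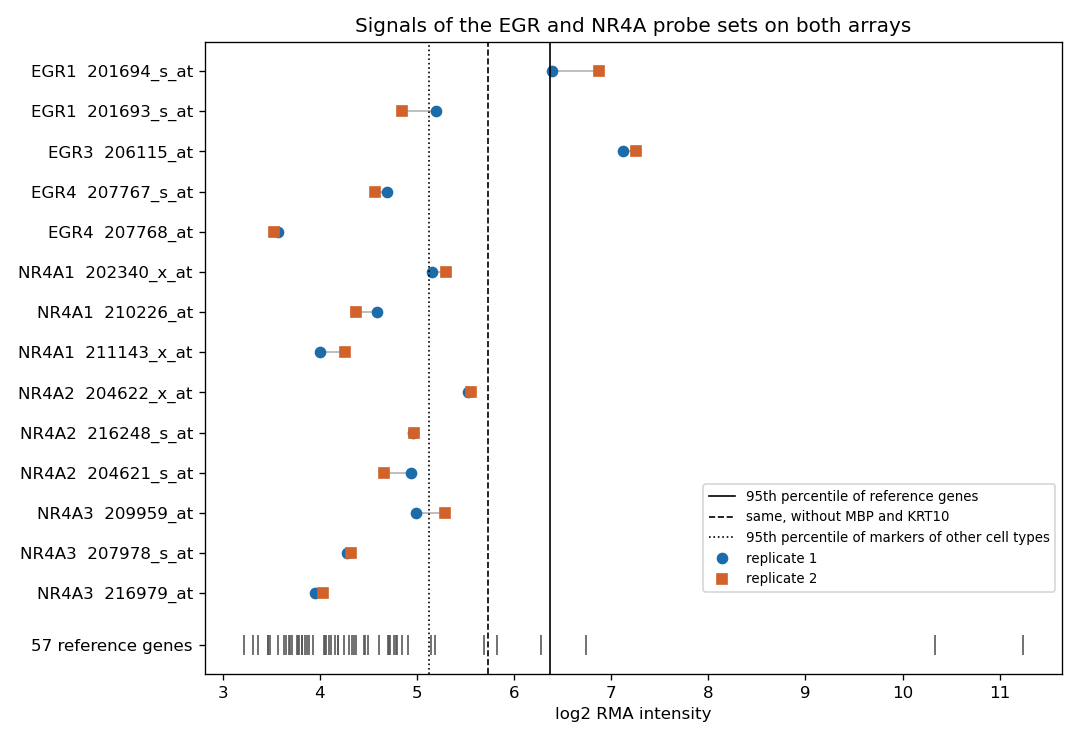
Log2 RMA intensity (horizontal axis) of each EGR and NR4A probe set in replicate 1 (circles) and replicate 2 (squares), with the mean of the 2 arrays for the 57 reference genes as ticks in the bottom row and 3 background levels, each the mean of the arrays, as vertical lines. EGR3 lies right of every line, the brighter EGR1 set has replicate 1 on the solid line and replicate 2 right of it, and the 9 NR4A sets lie between 3.95 and 5.55.

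Differences between the arrays were small for these genes. The median absolute difference over the 6 genes was 0.14 on the log2 scale, and over all genes it was 0.10. Over the 14 probe sets it was 0.14, beside 0.15 for the 16119 named probe sets whose mean lay in the same range of signal (3.55 to 7.19). Of the 14 sets 9 were higher in replicate 2 and 5 in replicate 1. None of the 6 genes differed by more than 1, as 0.0419% of all genes did, and none by more than 0.58, as 1.31% did. The largest difference was that of EGR1, by its brighter set, whose direction the dimmer set did not share.

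**Figure D3:**
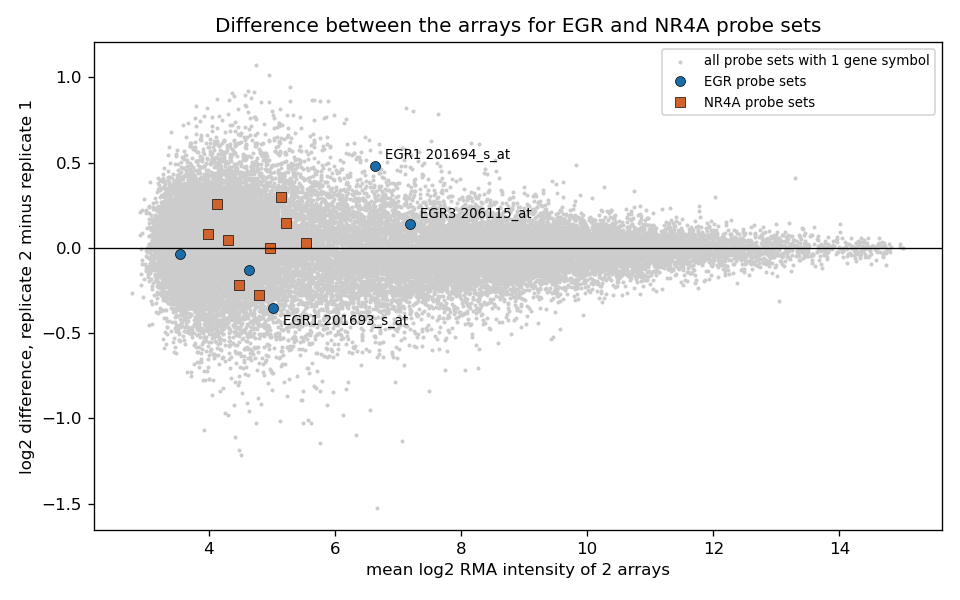
Log2 difference between the arrays (replicate 2 minus replicate 1, vertical axis) against mean log2 RMA intensity for all 29461 named probe sets (grey), the EGR sets (circles) and the NR4A sets (squares). The EGR1 sets lie at 0.48 and -0.35, and the other 12 sets lie within 0.30 of 0.

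The pathway around these genes was described through gene lists, with 84 of 117 distinct measured genes above background, against 47.8% of all genes. The list of SRF with its partners and the list of ERK pathway genes were mostly above it. SRF and its partners were above in 5 of 6 cases, among them SRF itself (9.72 ± 0.07, by 1 of 2 probe sets). The ternary complex factors ELK1 (7.79 ± 0.03, by 2 of 3), ELK3 (8.94 ± 0.05, by 1 of 2) and ELK4 (10.26 ± 0.03, by 2 of 5) were above too. MRTFA, an actin-sensing coactivator of SRF, was not (6.02 ± 0.04). Of the ERK pathway genes 9 of 10 were above, including the small GTPase gene HRAS (8.38 ± 0.02) and the kinase ARAF (8.44 ± 0.08). So were the kinases that activate ERK, MAP2K1 (10.24 ± 0.06) and MAP2K2 (9.58 ± 0.13, by 2 of 3 probe sets). The ribosomal S6 kinase gene RPS6KA2 was not (5.16 ± 0.11).

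The lists around CREB and MEF2, which induce the NR4A genes, were also mostly above background, beside 47.8% of all genes. The CREB list had 7 of 9 above, with CREB1 (10.18 ± 0.10, by all 6 probe sets) and CREM (9.38 ± 0.01, by 3 of 4). The coactivator CRTC3 (9.42 ± 0.02) and the acetyltransferase CREBBP (9.45 ± 0.07, by 1 of 2) were also above. CRTC1 was not (6.07 ± 0.08), and CRTC2 exceeded the level in replicate 2 alone (6.39 and 6.53). The MEF2 and calcium list, which holds repressors of MEF2 such as class IIa deacetylases beside its activators, had 12 of 15 above. MEF2C, a B-cell member of the family, was at 11.89 ± 0.01 (by 3 of 3 probe sets) and MEF2A at 9.27 ± 0.03 (by 2 of 3). MEF2D (6.56 ± 0.12, by 1 of 3 probe sets) and HDAC5 (6.45 ± 0.00032) were close to the level. HDAC4 (6.03 ± 0.19), HDAC7 (5.78 ± 0.03) and the calcineurin target NFATC1 (5.56 ± 0.03) were not above it. Of the retinoid receptors with which NR4A1 and NR4A2 can pair, RXRA (8.50 ± 0.09, by 2 of 2 probe sets) and RXRB (8.07 ± 0.16, by 1 of 3) were above background. RXRG was not (3.86 ± 0.09).

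Of the EGR corepressors NAB1 was above background (8.42 ± 0.08, by 2 of 3 probe sets) and NAB2, itself an EGR target, was not (6.19 ± 0.10). Both were above background with the mean of all probe sets, without _x_at and _s_at sets and under each lower level tried. Genes reported as EGR targets in lymphocytes were above in 8 of 11 cases. Among them were ID3, an inhibitor of E proteins (11.02 ± 0.04), the ubiquitin ligase CBLB (9.28 ± 0.05) and the kinase DGKA (8.31 ± 0.06), the last 2 known from T-cell anergy, and TNFSF10 (8.92 ± 0.04), whereas FASLG (4.19 ± 0.08) and SOCS3 (5.11 ± 0.02) were not. All of these genes have other regulators, and their signals do not measure EGR activity. By probe set, CBLB was above in 1 of 2, DGKA in 2 of 2 and TNFSF10 in 3 of 3. Feedback inhibitors of ERK signalling were above in 5 of 10 cases, close to the 47.8% of all genes. The phosphatases DUSP1 (7.32 ± 0.09, by 1 of 3 probe sets), DUSP2 (10.02 ± 0.17), DUSP4 (10.70 ± 0.01, by 3 of 3) and DUSP5 (9.43 ± 0.11) were above. DUSP6 (4.38 ± 0.05), SPRY1 (4.90 ± 0.25), SPRY4 (5.30 ± 0.19) and SPRED1 (3.63 ± 0.12) were not.

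Other immediate early genes were above background in 19 of 27 cases, beside 1 of 6 for the EGR and NR4A genes and 47.8% of all genes. This contrast depended on the level. The counts were 20 of 27 beside 4 of 6 at the median of all probe sets (57.5% of all genes). At the 75th percentile of the reference list they were 20 of 27 beside 5 of 6 (61.6%). JUN (8.59 and 8.58 on the arrays, by 3 of 4 probe sets), JUNB (8.50 ± 0.18), JUND (10.60 ± 0.06, by 1 of 3) and MYC (11.65 ± 0.07) were above. FOS (4.07 ± 0.13), FOSB (4.15 ± 0.0049), FOSL1 (6.02 ± 0.13) and FOSL2 (4.40 ± 0.12) were not. Zinc finger factors that share GC-rich sites with the EGR proteins were above in 6 of 10 cases. Among them were SP1 (9.11 ± 0.06, by 3 of 4 probe sets), SP2 (8.57 ± 0.03, by 1 of 2), SP3 (10.83 ± 0.03) and KLF13 (9.74 ± 0.16, by 2 of 3). WT1, whose zinc fingers resemble those of EGR1, was not above (4.46 ± 0.11). Of the other nuclear receptors 10 of 15 were above, among them the circadian repressor NR1D2 (6.49 ± 0.19, by 1 of 2 probe sets). The orphan receptors NR2C1 (8.65 ± 0.06, by 2 of 3), NR2C2 (9.62 ± 0.01, by 1 of 2) and NR2F6 (8.09 ± 0.0024, by 1 of 3) were above too. NR2F1 (3.51 ± 0.04), NR1H3 (5.08 ± 0.01), THRA (4.35 ± 0.20) and PPARD (4.57 ± 0.23) were not. These counts describe the lists by their brightest probe sets, and no difference between lists was tested.

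**Figure D4:**
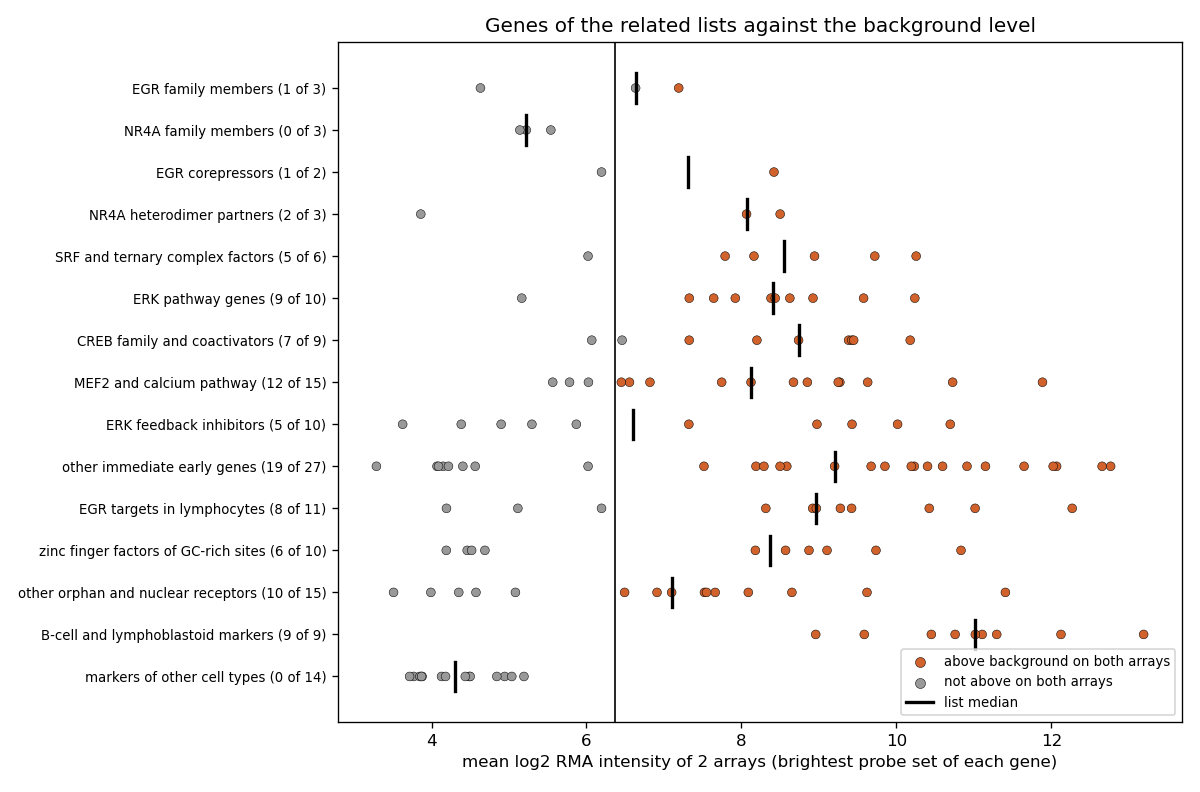
Mean log2 RMA intensity of the 2 arrays (horizontal axis) for the brightest probe set of each gene, by list, with genes above background on both arrays in orange, others in grey, list medians as short bars and the mean background level as the vertical line; the counts in brackets are genes above background of those measured. The 3 NR4A genes lie between 5.14 and 5.54, and the list of other immediate early genes has a group from 7.52 upward and a group at or below 6.02.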

How the data were processed

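The authors deposited 1 intensity per probe set and array on a linear scale, made with RMA per the submitters' processing notes (version not given in the sources used here), and log2 was taken here. RMA makes the distributions of the arrays alike, so a change in total RNA per cell could not be seen, and it gives no detection call. Of 36289 probe sets, 29493 had 1 symbol in the platform annotation, 1407 several and 5389 none; 29461 of those with 1 symbol matched a RefSeq gene (GRCh38.p14) by Entrez ID and were used. Of 68 reference genes written, 57 were measured, and 3 exceeded the level. Each gene was represented by its brightest probe set by mean. Named genes were all members and, per list, up to 4 above background and up to 4 not above, in the order written; KRT10 and MBP were named after their values were seen. The members and lists were chosen with earlier results of these data known. The calls and motif search were tested on simulated data. Alternatives changed the level, the probe sets and the normalization. Python 3.11.15, pandas 2.3.3, NumPy 2.4.6 and statsmodels 0.14.6 were used. Protein sequences were not used here. The number of arrays limits the precision.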

Additional observations from a re-analysis of the deposited data

How the results depend on the processing

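The count of EGR and NR4A genes above background was 1 of 6, against 47.8% of all genes. It became 5 with the 75th percentile of the reference list as the level (61.6% of all genes), where 4 of 14 markers of other cell types were above too. With the 99th percentile the count was 0 (9.69%). It was 4 with the median of all probe sets (57.5%), 2 without MBP and KRT10 as reference genes (51.8%) and 4 with the markers of other cell types (56.8%). The count of probe sets (1 of 14) became 7, 0, 4, 2 and 4 under the same settings. The share of all named probe sets was taken only at the level reported (42.6%). With 1 replicate left out, both counts ranged from 1 to 2, EGR1 being added without replicate 1. Both stayed at 1 without _x_at and _s_at sets (of 4 genes and 5 probe sets, with no set left for EGR1 and NR4A2) and after a second quantile normalization, as did the gene count with the mean of all probe sets. Over all related lists 84 of 117 genes were above, against 47.8% of all genes. At the 99th percentile this became 12 of 117, close to the 9.69% of all genes. Otherwise the count lay between 63 of 87, without _x_at and _s_at sets (44.7% of all genes), and 97 of 117. The latter was reached at the 75th percentile (61.6%) and at the median of all probe sets (57.5%). Of 130 counts of single lists under alternatives, 104 were within 1.5 times the count reported. The median absolute difference of the 6 genes lay between 0.08 and 0.18 under its alternatives. No paired analysis was possible because the labels give 1 group.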

Other observations

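Promoter motifs were also set beside the calls of all measured genes with a promoter window, of which 51.5% of 13094 were above background. Of the 206 genes with a CArG box in any of their windows 103 were above background, and of the 4127 with a CRE core 62.7%. The full CRE was present in 392 genes, of which 66.8% were above, and the EGR site in 1139, of which 58.7% were. Genes with the ETS site were above background in 82.7% of 809 cases and genes with a TATA box in 37.1% of 1430. The NR4A site, or NBRE, was present in 157 genes, of which 45.9% were above. Of the 101 related genes with a window, 27 held an EGR site, among them both corepressor genes, NAB1 and NAB2, and 21 of these 27 were above background, beside 72 of all 101. These shares are descriptions of 1 cell line, and genes are not independent. The base composition of the windows was not compared between motifs.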
